A study of Mus musculus with 3 samples.

Results

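Wnt2, Wnt9b, Rspo3, Axin2, Lgr5, Glul and Tbx3 make up the pericentral WNT and R-spondin axis described here. They were taken by symbol, 7 genes of the 31053 in the count tables, and each was present in all 3 libraries. Wnt2, Wnt9b and Rspo3 encode secreted ligands known from endothelial and stellate cells around the central vein. Axin2, Lgr5, Glul and Tbx3 are known targets of that signal in the hepatocytes beside the vein.

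WNT proteins bind Frizzled receptors with the co-receptors Lrp5 and Lrp6, and the signal stabilises beta-catenin, which acts with TCF and LEF factors on target genes. R-spondins bind LGR receptors and hold back the ubiquitin ligases Rnf43 and Znrf3, which otherwise clear Frizzled from the cell surface. In the liver lobule this signal is strongest at the central vein, where hepatocytes make glutamine with the enzyme encoded by Glul and carry the cytochrome P450 enzymes of drug metabolism, while urea synthesis is stronger in periportal hepatocytes.

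The libraries held liver non-parenchymal cells, the cells left after hepatocytes are largely removed, taken from female mice of the strain labelled Balb\c after perfusion of the organ. The control mice were injected orthotopically with PBS, and the other groups with 4T1 cells, a mouse breast carcinoma line, and were collected at day 4 or day 21. There was 1 library per group, so no difference below has a replicate check and no test was made. The labelled age was 8 weeks for the control and day 4 groups and 11 weeks for day 21, so age and the day 21 group cannot be told apart. The collection day of the controls and the number of mice per library are not stated in the labels.

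The deposited tables held 6489 barcodes for the control, 9175 at day 4 and 12338 at day 21, with 27191082, 34833820 and 51913215 unique molecular identifiers (UMIs, 1 per captured RNA molecule). The filters left 4694, 5257 and 9938 cells, whose median UMI counts were 4179, 4405 and 3017. The share of barcodes removed for more than 20% mitochondrial UMIs was 23.82%, 31.99% and 10.71%, so RNA quality differed between the libraries along with the group. Of the kept cells, 20, 24 and 34 carried a barcode that another library also held. Classes were named "X-like" from marker genes of Leiden clusters built without the 7 members. The endothelial-like class had 1368, 1474 and 1115 cells in the control, day 4 and day 21 libraries, and its cells lay in different clusters: cluster 0 held 1234, 1366 and 34 of them, cluster 5 held 15, 23 and 997, and cluster 21 held 110, 74 and 67. The stellate-like class (the pericytes of the sinusoid) had 385, 430 and 229 cells, with 364, 422 and 3 in cluster 10 and 21, 8 and 226 in cluster 20. The 2 clusters with hepatocyte markers, 15 and 31, had 84, 205 and 196 cells, with all 14 hepatocyte markers of the list detected, but their cells were shallow, with median depths of 1589, 1243 and 989 UMIs. They are called hepatocyte-marker clusters, since the depth of cluster 15 was too low for a cell type name under the rule used.

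In GRCm38 coordinates Wnt2 lies at chr6:17988940-18030585 on the minus strand, Wnt9b at chr11:103727364-103749821 on the minus strand and Rspo3 at chr10:29452416-29535867 on the minus strand. Axin2 lies at chr11:108920349-108950783, Glul at chr1:153899944-153909723 and Tbx3 at chr5:119670669-119684724, each on the plus strand, and Lgr5 at chr10:115450311-115587780 on the minus strand. All 7 are protein-coding. Rspo3, Axin2, Lgr5, Glul and Tbx3 overlap another annotated gene, among them the antisense genes Gm48159, Gm11670 and Tbx3os1 and, opposite Lgr5, A930009A15Rik, while Wnt2 and Wnt9b overlap none. The RefSeq promoter table of build GRCm38.p6 held 4 of the 7 members: Wnt2, Wnt9b, Axin2 and Glul. The 250 bases upstream of the RefSeq start of Wnt2 and Wnt9b are shown. These 2 WNT ligands lay on opposite sides of the control at day 21 in endothelial-like cells (values below). For Wnt2 the RefSeq start lies inside the gene span given above, which ends at 18030585. The 3′ part of its window, with the TGATAA match, is thus within that span, while the Wnt9b window lies wholly outside its gene span. Wnt2 is at chr6:18030446-18030695 and Wnt9b at chr11:103749822-103750071, both read 5′ to 3′ on the minus strand; capitals mark GGGCGG on either strand (CCGCCC on the other), the GC box letters, and TGATAA on either strand (TTATCA on the other), letters that fit GATA factors.
Wnt2: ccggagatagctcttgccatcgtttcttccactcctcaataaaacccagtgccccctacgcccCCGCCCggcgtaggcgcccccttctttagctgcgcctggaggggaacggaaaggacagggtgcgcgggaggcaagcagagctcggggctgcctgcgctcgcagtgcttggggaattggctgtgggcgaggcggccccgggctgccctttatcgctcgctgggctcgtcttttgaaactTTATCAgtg
Wnt9b: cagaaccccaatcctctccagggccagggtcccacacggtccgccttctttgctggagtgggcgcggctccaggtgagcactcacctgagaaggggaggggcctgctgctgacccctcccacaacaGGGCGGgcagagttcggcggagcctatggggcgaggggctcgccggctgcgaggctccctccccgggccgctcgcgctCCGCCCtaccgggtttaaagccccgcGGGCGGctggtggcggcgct
The Wnt2 window holds 1 GGGCGG match and 1 TGATAA match, the latter at bases 242 to 247, counted from 1 at the 5′ end. The Wnt9b window holds 3 GGGCGG matches and 0 TGATAA matches. Of 32851 promoter windows of the same length, 32.7% hold GGGCGG and 7.94% hold TGATAA. The core TCF letters CTTTGA, present in 13.8% of all windows, were in 0 of the 4 member windows on either strand, as was AGATAA, present in 9.99%. AGATAA and TGATAA share the letters GATAA. A match describes letters in the window and not a bound site.

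Wnt2 RNA was mainly in endothelial-like cells, which held 69.2%, 73.6% and 70.5% of its UMIs in the control, day 4 and day 21 libraries. Levels are given as UMIs per 1000000 UMIs (CPM), both added up across the cells that a library has in the class, with exact 95% Poisson intervals. Intervals here cover counting error only, not differences between mice or libraries. In endothelial-like cells Wnt2 was at 322 CPM in the control (310 to 335; 2534 UMIs), 353 at day 4 (340 to 367; 2722 UMIs) and 193 at day 21 (177 to 210; 540 UMIs). The day 21 library was the lowest, with an interval apart from the others. The log2 ratio to the control was 0.13 at day 4 (95% interval 0.05 to 0.21) and -0.74 at day 21 (-0.87 to -0.60). The share of cells with a Wnt2 UMI was 58.7%, 61.8% and 28.2% in the control, day 4 and day 21 libraries, at median depths of 5689, 5201 and 2485 UMIs. In T-like cells, which should lack the gene, the share was 0.917%, 0.204% and 0%, at 3677, 3896 and 1741.5 UMIs. Because the day 21 cells were shallower, the share was also taken after thinning every cell to 1000 UMIs, and was then 23.5%, 23.6% and 16.3%.

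Wnt9b encodes a second WNT ligand, known from the endothelium of the central vein. Its counts were low. Endothelial-like cells held 66 of 85 Wnt9b UMIs among control cells, 101 of 119 at day 4 and 73 of 90 at day 21. The level was 8.40 CPM in the control (6.49 to 10.7), 13.1 at day 4 (10.7 to 15.9) and 26.1 at day 21 (20.5 to 32.9), so the order of the libraries was not that of Wnt2. The log2 ratio to the control was 0.64 at day 4 (0.18 to 1.11) and 1.64 at day 21 (1.14 to 2.14), a 3.11-fold higher level. Against day 4 the day 21 level was 1.998-fold, just under the 2-fold rule used for counts. The share of cells with a Wnt9b UMI, 3.36%, 4.00% and 3.86%, did not follow the level; thinned to 1000 UMIs it was 0.516%, 0.956% and 1.88%. T-like cells held 0 Wnt9b UMIs in each library.

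Rspo3 encodes the R-spondin best known from the central vein. Its level in endothelial-like cells was 88.2 CPM in the control (81.7 to 95; 693 UMIs), 87.1 at day 4 (80.6 to 93.9; 671 UMIs) and 144 at day 21 (131 to 159; 403 UMIs). The control and day 4 intervals overlapped almost wholly and day 21 lay above both. The log2 ratio to the control was -0.02 at day 4 (-0.17 to 0.14) and 0.71 at day 21 (0.53 to 0.89), a 1.64-fold higher level. The share of cells with a UMI was 10.3%, 7.80% and 8.79%, against 0.306%, 0.407% and 0% in T-like cells. Stellate-like cells hold far more Rspo3 (below), so the endothelial value was also read in cells with at most 1 stellate marker detected. There Rspo3 was at 65.6 (59.1 to 72.6), 88.3 (80.7 to 96.4) and 128 CPM (114.5 to 142.9) in the control, day 4 and day 21 libraries. Day 21 was again the highest, but day 4 now lay above the control. The cut depends on depth: it left out 343, 351 and 88 cells, and those kept had median depths of 5431, 5004 and 2436 UMIs. It therefore cannot clear stellate RNA equally from the 3 libraries. The 14 stellate markers summed to 270.5, 285 and 252 CPM in the class. With coarser clusters (Leiden resolution 0.5) the day 21 log2 ratio of Rspo3 in endothelial-like cells was 1.31, and with each cell thinned to 1000 UMIs it was 0.36, with an interval that spans 0 (-0.04 to 0.75).

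**Figure D1:**
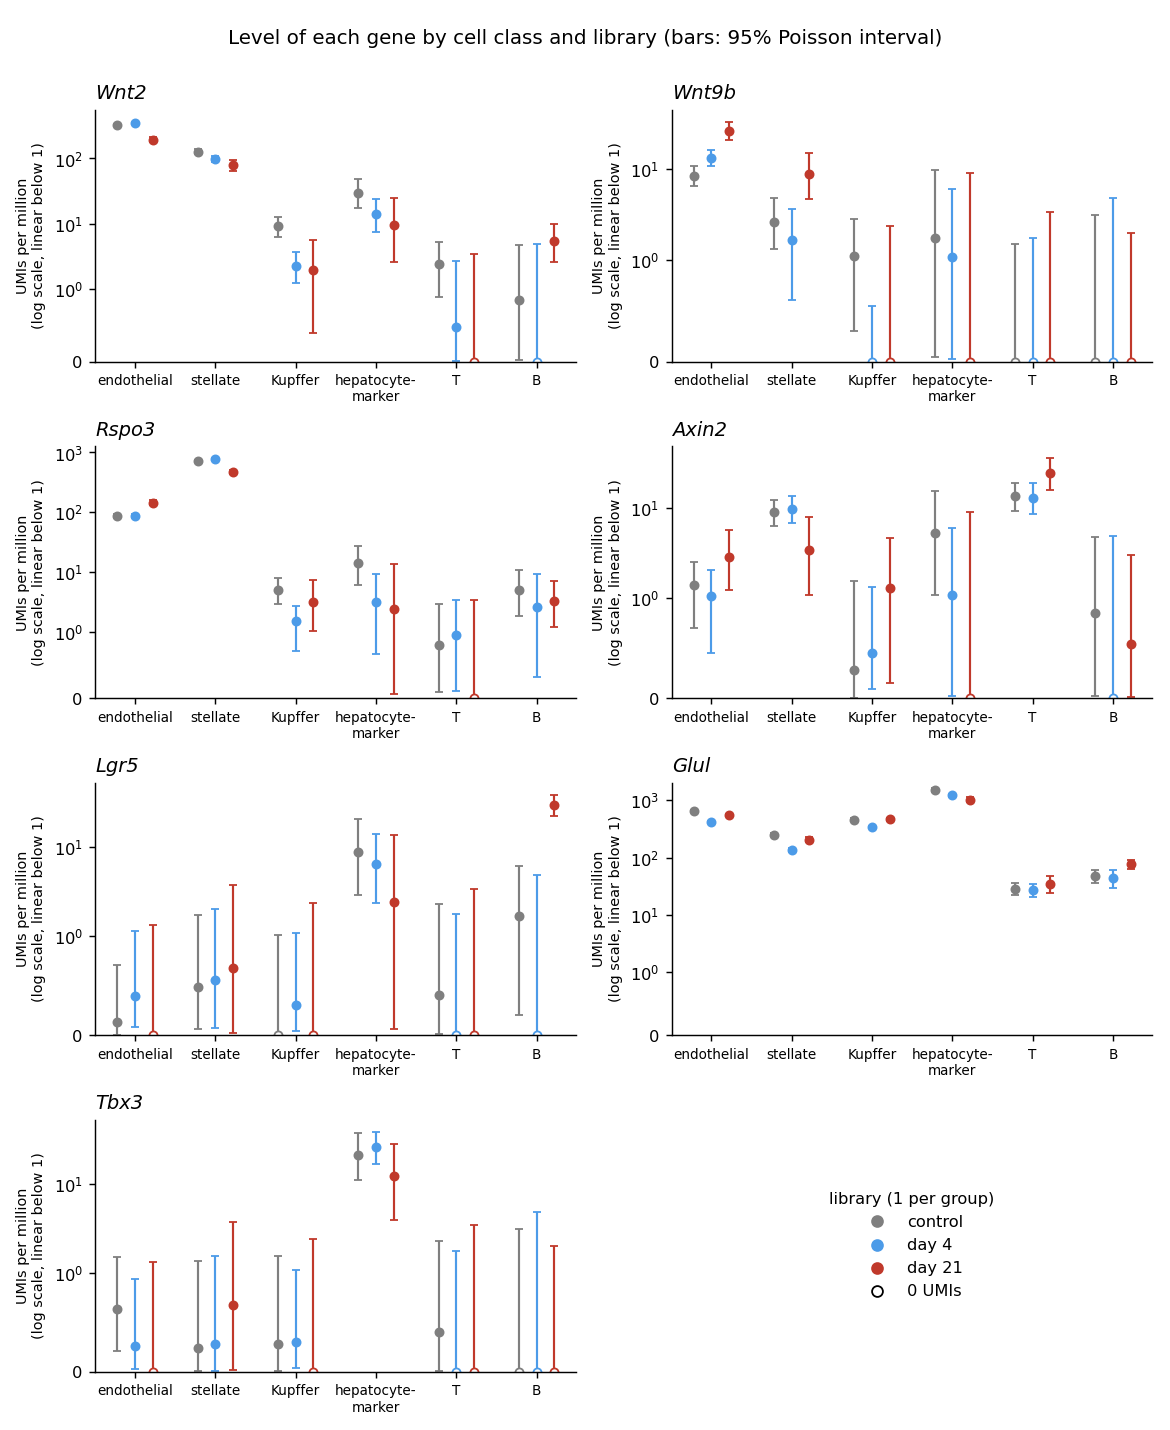
Level of each of the 7 genes (CPM, log axis that is linear below 1) in 6 cell classes of the 3 libraries, 1 panel per gene, with bars for exact 95% Poisson intervals of counting error and open circles for 0 UMIs. Wnt2 and Wnt9b are highest in endothelial-like cells, Rspo3 in stellate-like cells, and Glul and Tbx3 in the hepatocyte-marker clusters.

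Of the 4 members with 20 or more UMIs in endothelial-like cells (the 3 ligands and Glul), 0 were at least 2-fold higher at day 4 than in the control, against 1.27% of 11392 genes, and 0 were 2-fold lower, against 1.57%. At day 21, 1 of the 4, Wnt9b, was at least 2-fold higher than in the control, against 7.57% of genes, and 0 were 2-fold lower, against 4.95%. Against day 4, 0 were 2-fold higher at day 21 (5.69% of genes) and 0 lower (3.87%). The median log2 ratio of the 3 ligands was 0.13 at day 4 and 0.71 at day 21 against the control, and 0.73 for day 21 against day 4. It joins values of opposite sign at day 21, where Wnt2 was lower and Wnt9b and Rspo3 were higher.

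**Figure D2:**
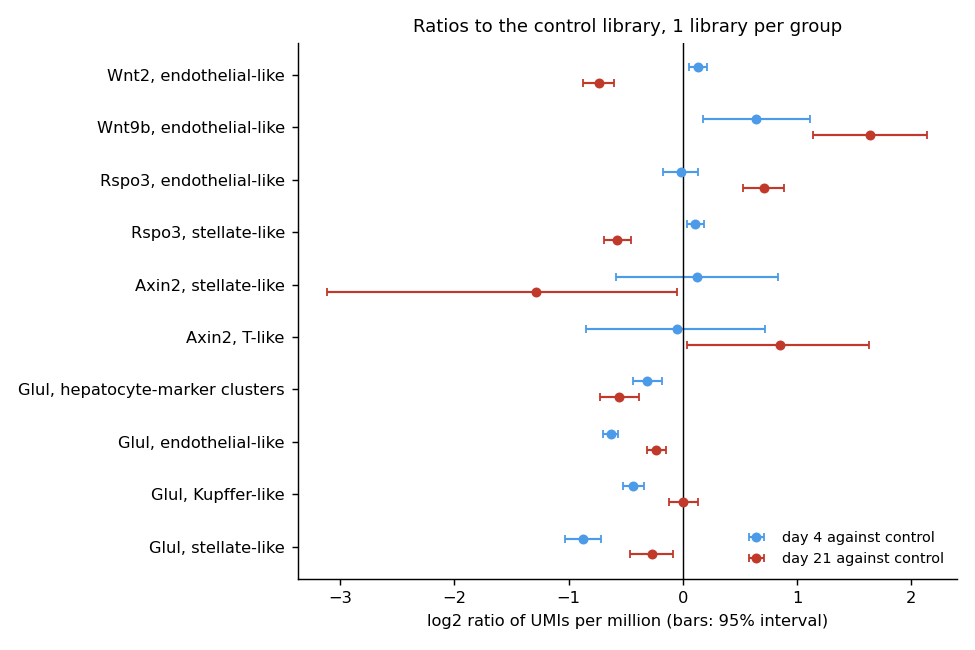
Log2 ratios of CPM to the control library for selected members in selected classes, day 4 in blue and day 21 in red, with exact 95% intervals of counting error. Lgr5 and Tbx3 are not shown. Wnt2 lies below 0 and Wnt9b and Rspo3 above 0 in endothelial-like cells at day 21, while Rspo3 lies below 0 in stellate-like cells.

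The ligands were concentrated in endothelial cells with pericentral genes. Cells of clusters 0 and 5, the sinusoidal part of the class, were divided by whether they held more UMIs of a 15-gene pericentral endothelial list or of a 14-gene periportal list, neither of which contains a ligand. The division is a range and not a cell type: 75, 91 and 163 cells lay within 1 UMI of the line. The pericentral side held 568 control cells, 656 at day 4 and 538 at day 21, and the periportal side 653, 711 and 443. Rspo3 was at 157, 142 and 217 CPM on the pericentral side and at 1.64, 2.77 and 1.91 CPM on the periportal side, where 6, 10 and 2 UMIs were counted. Wnt9b was at 15.6, 22.6 and 39.7 CPM on the pericentral side against 2, 0 and 1 UMIs on the periportal side. Both genes were thus nearly absent from the periportal cells in each library. Wnt2 spread further, with 587, 572 and 306 CPM on the pericentral side and 132, 161 and 54.5 CPM on the periportal side. Glul had the opposite slope in these cells, with 429, 293 and 341 CPM on the pericentral side and 784, 510 and 652 CPM on the periportal side. Several genes of the pericentral list themselves were higher at day 21 in endothelial-like cells, such as Selp, an adhesion receptor for leukocytes, from 13.5 to 152 CPM (log2 ratio 3.49), and Vwf, a clotting factor carrier (log2 ratio 2.07). Of 14 measured genes of the pericentral list, 6 were at least 2-fold higher and 0 lower, with a median log2 ratio of 0.60 against 0.09 for all genes, of which 7.57% were higher and 4.95% lower. For the periportal list it was 3 higher and 1 lower of 14, with a median of 0.39, so both lists had more genes 2-fold higher than that share. The part of these list genes in the day 21 ligand values was not tested.

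**Figure D3:**
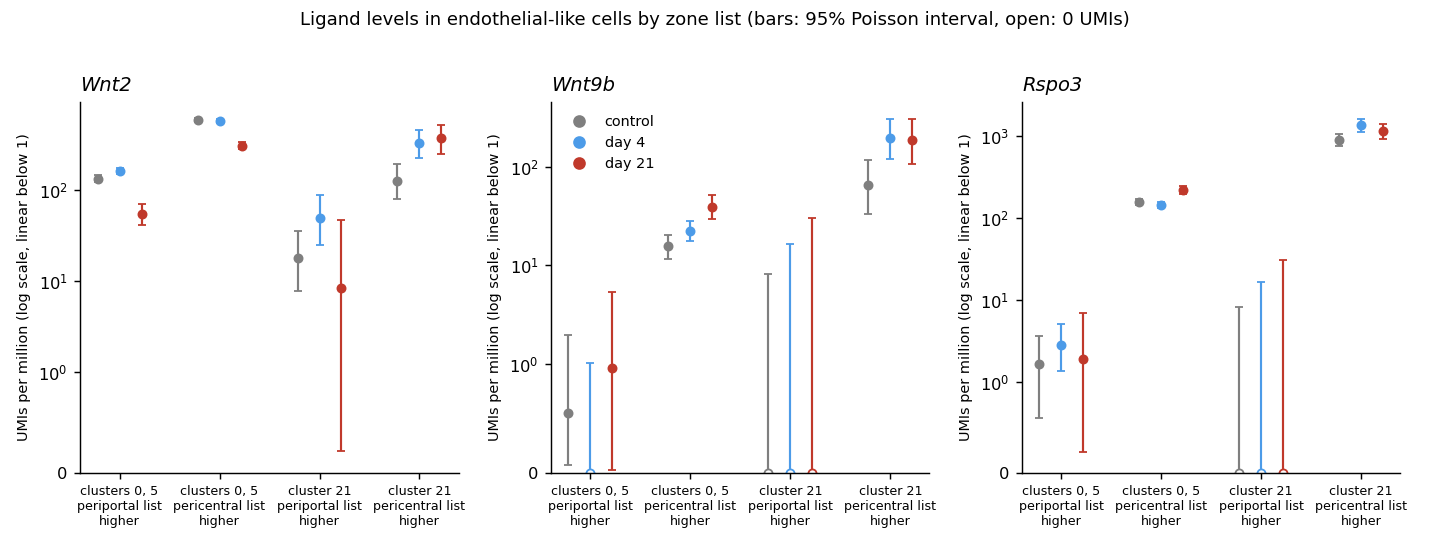
Level of Wnt2, Wnt9b and Rspo3 (CPM, log axis that is linear below 1) in endothelial-like cells on the periportal and pericentral side of the list comparison, for clusters 0 and 5 and for cluster 21, per library, with 95% Poisson intervals and open circles for 0 UMIs. Each of the 3 ligands is higher on the pericentral side in each library.

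Genes of the zone lists were also compared between endothelial-like cells with and without a UMI of a ligand, first in the control. Cells with an Rspo3 UMI (141 endothelial-like cells) held Lhx6, a transcription factor of the pericentral list, at 65.8 CPM against 5.18 in cells without, and Cdh13, a cadherin, at 520 against 99.7 CPM. They held Msr1, a scavenger receptor of the periportal list, at 72.3 against 406 CPM, and Adgrg6, an adhesion receptor, at 1.096 against 41.45 CPM. Cells with a Wnt9b UMI (46) held Lhx6 at 115 against 8.20 CPM. At day 21 the cells with Rspo3 (98) held Lhx6 at 79.0 against 9.24 CPM and Cd36, a fatty acid transporter of the periportal list, at 75.7 against 831 CPM. Ligands were also detected together: of endothelial-like cells with Wnt9b, 54.4% for the control, 64.4% for day 4 and 72.1% for day 21 held Rspo3, against 8.78%, 5.44% and 6.25% of cells without Wnt9b. Of cells with Wnt2, 16.4%, 12.0% and 22.6% held Rspo3, against 1.59%, 1.07% and 3.37% of cells without. Cells with all 3 ligands numbered 23, 38 and 24, and cells with no ligand UMI 555, 556 and 770, which is 40.6%, 37.7% and 69.1% of the class. Deeper cells have more chances of showing any pair, and these shares were not matched for depth.

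Cluster 21 is a smaller endothelial-like cluster led by Vwf, Edn1 and Adgrg6, genes known from endothelium of larger vessels, and unlike clusters 0 and 5 it held 50 or more cells in each library. Within it Wnt2 was not lower at day 21. Wnt2 was at 47.2 CPM in control cells, 135 at day 4 and 154 at day 21, from 29, 44 and 32 UMIs, a log2 ratio to the control of 1.51 at day 4 (0.81 to 2.25) and 1.70 at day 21 (0.94 to 2.48). Wnt9b was at 17.9, 61.3 and 76.9 CPM from 11, 20 and 16 UMIs, and Rspo3 at 242, 414 and 462 CPM from 149, 135 and 96 UMIs. The log2 ratio of day 21 to the control was 2.09 for Wnt9b (0.91 to 3.36) and 0.93 for Rspo3 (0.54 to 1.31). In this cluster both 4T1 libraries were above the control for each ligand. The pericentral side of the cluster, 28, 20 and 25 cells, held the Rspo3 and Wnt9b UMIs, since its periportal side of 82, 52 and 41 cells had 0 UMIs of both in each library. The Rspo3 level of the pericentral side was 898 (759 to 1054), 1343 (1126 to 1589) and 1141 CPM (924 to 1393). There the day 21 interval of Rspo3 overlapped that of the control, and day 4 lay above the control. On this side Wnt2 was at 126.5 (78.3 to 193), 328 (226 to 461) and 368 CPM (250 to 523). Its intervals at day 4 and day 21 lay above that of the control. Wnt9b was at 66.3 (33.1 to 118.6), 199 (121.5 to 307) and 190 CPM (108.7 to 309). Its day 21 interval overlapped that of the control. The pericentral side made up 25.5%, 27.0% and 37.3% of the cluster's cells. The part of this share in the ratios of the whole cluster was not tested. In clusters 0 and 5 alone the day 21 to control log2 ratio of Wnt2 was -0.82, and of these cluster 0 held most cells in the control and at day 4 and cluster 5 most cells at day 21. The choice of these clusters was made after seeing the data.

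Stellate-like cells were the main holders of Rspo3, with 73.5% of its UMIs for the control, 76.4% for day 4 and 56.8% for day 21, against 17.2%, 18.5% and 32.1% in endothelial-like cells. The stellate level was 713 CPM in the control (2965 UMIs), 769 at day 4 (2770 UMIs) and 479 at day 21 (713 UMIs), and 93.8%, 92.8% and 78.2% of the cells held a UMI. The log2 ratio to the control was 0.11 at day 4 (0.03 to 0.18) and -0.57 at day 21 (-0.69 to -0.45). Rspo3 was thus lower in stellate-like and higher in endothelial-like cells at day 21; the difference between the classes was not tested. As given above, most day 21 stellate-like cells lay in cluster 20 and most of the others in cluster 10, so no stellate-like cluster held 50 or more cells in both the control and day 21 libraries. In stellate-like cells with at most 2 endothelial markers (69, 90 and 43 cells, a choice made after seeing the data) Rspo3 was at 982, 827 and 496 CPM, so day 21 was again the lowest, and day 4 lay below the control.

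**Figure D4:**
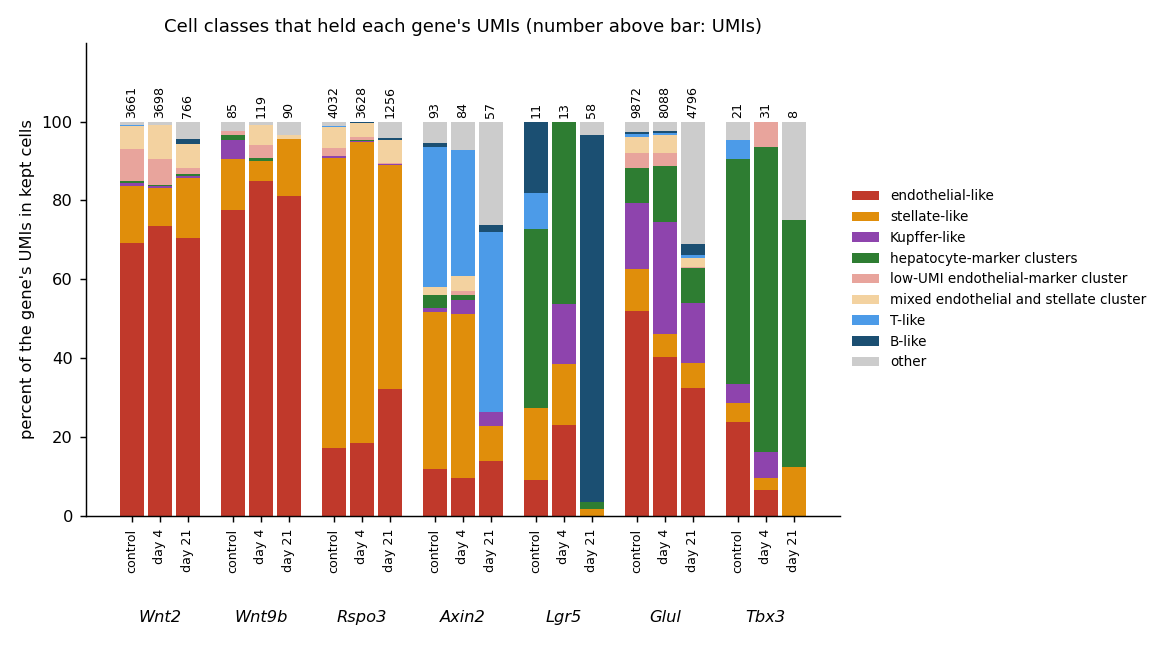
Share of the kept UMIs (percent) of each of the 7 genes that lay in each cell class, per library, as stacked bars with the number of UMIs above. Endothelial-like cells hold most Wnt2 and Wnt9b, stellate-like cells most Rspo3, and at day 21 B-like cells hold 93.1% of Lgr5.

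Endothelial RNA was present in the stellate-like class, with the 17 endothelial markers at a summed 10823, 8889 and 12394 CPM against 32945, 34723 and 33212 CPM in endothelial-like cells. Wnt2 in stellate-like cells was at 126, 98.8 and 78.6 CPM, and it lay in the cells with more endothelial markers: cells with at most 2 endothelial markers had 3, 1 and 3 Wnt2 UMIs, and the other stellate-like cells were at 138, 113 and 87.1 CPM. The 11, 6 and 13 Wnt9b UMIs of the class were also outside the cells with at most 2 endothelial markers, which held 0. Of the 5 members measured in stellate-like cells, 1 was 2-fold higher at day 21 than in the control, Wnt9b, against 6.57% of genes, and 1 lower, Axin2, against 4.74%. In the order of classes, Wnt2 in endothelial-like cells (193 to 353 CPM over the libraries) overlapped the low-UMI cluster with endothelial markers (162 to 273 CPM) and the cluster with endothelial and stellate markers together (138 to 282 CPM), and these lay above stellate-like cells. The next class, the hepatocyte-marker clusters, reached 29.9 CPM. Rspo3 in stellate-like cells (479 to 769 CPM) lay apart from the next group, the mixed cluster (113 to 241 CPM), which overlapped endothelial-like cells (87.1 to 144 CPM).

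Among other ligands of the pathway in stellate-like cells, Rspo1, a second R-spondin, was at 4.33 CPM in control cells, 7.496 at day 4 and 22.2 at day 21 from 18, 27 and 33 UMIs, a day 21 log2 ratio of 2.34 (1.49 to 3.27). Its direction was opposite to that of Rspo3 in the same cells. Wnt4, a further WNT ligand, was at 138, 156 and 96.8 CPM (day 21 log2 ratio -0.51). In endothelial-like cells 1 gene of the other WNT ligands and R-spondins was measured. It was at least 2-fold lower at day 21 than in the control (log2 ratio -1.37), against 4.95% of genes. Wls, the carrier needed for WNT secretion, was nearly level, at 144, 142 and 159 CPM in endothelial-like and 164, 169 and 167 CPM in stellate-like cells. Of the secreted inhibitors measured in stellate-like cells, 2 of 5 were at least 2-fold higher at day 21, against 6.57% of all genes. They were Frzb (32.9, 42.2 and 97.4 CPM, log2 ratio 1.56) and Sfrp1 (2.95, from 8 UMIs in the control and 23 at day 21). A further 1 was lower, Sfrp4 (-2.03, from 28, 1 and 2 UMIs), against 4.74% of genes. Most control stellate-like cells lay in cluster 10 and most at day 21 in cluster 20, so the stellate-like ratios here compare different clusters.

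Of 9 receptor genes measured in endothelial-like cells, 0 were 2-fold higher and 0 lower at day 21 than in the control, against 7.57% and 4.95% of genes. In stellate-like cells 1 of 11 was higher, Ror1 (9 UMIs at day 21 and 12 in the control), against 6.57% of genes, and 0 were lower. In Kupffer-like cells 1 of 8 was higher and 4 were lower, with a median log2 ratio of -0.88 against 0.09 for all genes, of which 6.02% were higher and 6.05% lower. Among these Fzd7 was higher (1.56), and Fzd4 (-1.495) and Lrp6, at 140 CPM in the control and 59.1 at day 21 (-1.24), were lower, in a class whose control and day 21 cells lay largely in different clusters. In the hepatocyte-marker clusters 1 of 5 was lower, Fzd8 (3 UMIs at day 21 and 18 in the control), against 6.35% of genes. There 0 were higher, against 12.9%. In endothelial-like cells Fzd4, a Frizzled of endothelium, was at 328, 231 and 325 CPM in the control, day 4 and day 21 libraries, lowest at day 4. Lrp5 was at 132, 117 and 85.6 CPM in endothelial-like cells (day 21 log2 ratio -0.62) and at 118, 99.1 and 65.9 CPM in stellate-like cells (-0.83), while Lrp6 was at 198, 181 and 171 CPM in endothelial-like cells. Of 16 intracellular transducers measured in endothelial-like cells, 1 was 2-fold higher at day 21, a share near the 7.57% of all genes; it was Pygo2, a nuclear co-factor of beta-catenin, at 16.0, 21.4 and 34.7 CPM (log2 ratio 1.12). Tcf7l1, a TCF factor, was at 145, 142 and 89.1 CPM (-0.70). Nkd1, a feedback inhibitor induced by WNT signalling, was at 62.3, 72.9 and 79.8 CPM in endothelial-like (0.36) and 208, 204 and 279 CPM in stellate-like cells (0.43).

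Of the targets, Glul had the most UMIs, and most of them lay outside the hepatocyte-marker clusters. Endothelial-like cells held 52.0%, 40.2% and 32.4% of its UMIs in the control, day 4 and day 21 libraries, Kupffer-like cells (the resident macrophages) 16.9%, 28.3% and 15.1%, and the hepatocyte-marker clusters 8.72%, 14.1% and 8.90%. Its level was highest in the hepatocyte-marker clusters at 1516, 1222 and 1032 CPM, a range above that of endothelial-like cells (653, 422 and 557 CPM). Kupffer-like cells were at 463, 343 and 464 CPM and their range overlapped the endothelial one. Both classes were lowest at day 4: the log2 ratio of day 4 to the control was -0.63 (-0.69 to -0.57) in endothelial-like, -0.43 (-0.53 to -0.34) in Kupffer-like and -0.87 (-1.03 to -0.72) in stellate-like cells. At day 21 it was -0.23 (-0.31 to -0.15), 0.00 (-0.12 to 0.13) and -0.27 (-0.46 to -0.09) in these classes, whose clusters differed between the libraries. Of the Kupffer-like cells, cluster 4 held 173, 332 and 636 in the control, day 4 and day 21 libraries and cluster 8 held 299, 567 and 33. Within cluster 4 Glul was at 324, 307 and 473 CPM, a log2 ratio to the control of -0.08 at day 4 (-0.37 to 0.22) and 0.54 at day 21 (0.29 to 0.81), so day 21 was the highest there. Within cluster 8 the day 4 ratio was -0.48 (-0.57 to -0.38). Within endothelial-like cluster 21 Glul was also highest at day 21, with a log2 ratio to the control of 0.53 (0.34 to 0.72), the opposite side from the whole class. In stellate-like cells the day 21 value was 0.28 (-0.28 to 0.82) after thinning to 1000 UMIs, and no direction at day 21 is given for Glul in these 3 classes. T-like cells held Glul at 28.4, 26.7 and 34.1 CPM, well under the classes above. The 14 hepatocyte markers summed to 1053, 848 and 371 CPM in endothelial-like cells and to 940.3, 830.2 and 360.0 CPM in T-like cells.

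Within the hepatocyte-marker clusters Glul UMIs were held by few cells. Cells with 10 or more Glul UMIs numbered 11 of 84 control cells, 28 of 205 at day 4 and 17 of 196 at day 21, and held 92.8%, 79.8% and 65.6% of the Glul UMIs. In the control 50% of them lay in 2 cells, against 8 and 11 cells at day 4 and day 21. The log2 ratio to the control was -0.31 at day 4 (-0.44 to -0.18) and -0.55 at day 21 (-0.73 to -0.39), and this direction depends on how cells are weighted: as a mean of the cells' own CPM it was 0.58 at day 4 and 0.25 at day 21. Allowing up to 50% mitochondrial UMIs gave 0.13 and 0.19. No direction is given for hepatocyte Glul on this basis.

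Cells in which Glul made up at least 0.5% of UMIs carried a pericentral set of genes. There were 9 such control cells, 43 at day 4 and 26 at day 21, against 75, 162 and 170 others. Oat, ornithine aminotransferase, was at 6639, 7697 and 8455 CPM in them and 322, 461 and 482 CPM in the others. Slc1a2, a glutamate transporter, was at 1906, 936 and 564 CPM against 67.6, 46.0 and 46.9 CPM, and Cyp2e1, a cytochrome P450, at 6347, 3968 and 2785 against 2221, 1100 and 412 CPM. Several genes of periportal hepatocytes were at or near 0 in the same cells: Arg1, arginase of the urea cycle, had 0, 0 and 1 UMIs against 283, 754 and 359 in the others, and Gls2, the glutaminase of liver, 0, 0 and 0 against 50, 185 and 98. Cps1, the first enzyme of the urea cycle, had 0, 10 and 1 UMIs against 370, 1176 and 250. Pck1, the enzyme that commits to glucose synthesis and a gene of the same list, was present in both sets, at 1998 and 2681 CPM in the control. So were Fbp1 (369 and 736 CPM), Alb (19885 and 47901) and Ass1 (246 and 1044) of that list in the control. The separation of Oat from Arg1, Gls2 and Cps1 was present in each library. Tbx3 had 2, 14 and 0 UMIs in the high-Glul cells and 10, 10 and 5 in the others, and Lgr5 2, 3 and 0 against 3, 3 and 1.

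The wider zonation genes of the hepatocyte-marker clusters differed between libraries. Of 16 measured genes of the pericentral list, 0 were at least 2-fold higher and 6 lower at day 21 than in the control, against 12.9% and 6.35% of all genes, with a median log2 ratio of -0.96 against 0.23 for all genes. Cyp2e1 was at 2694 CPM in the control against 585 at day 21 (log2 ratio -2.20, -2.41 to -2.01), and Slc1a2 at 278 and 84.6 CPM (-1.70). Oat did not follow, at 1046 and 1063 CPM (0.02). Of 18 periportal genes, 4 were higher and 0 lower with a median of 0.71, among them Hal, histidine ammonia lyase, at 118 and 416 CPM (1.81), and Gls2 (1.42), while Alb was at -0.62. At day 4 the medians were -0.20 for the pericentral list, with 1 gene higher and 1 lower (3.97% and 4.82% of all genes), and 0.78 for the periportal list, with 6 higher. For day 21 against day 4 both medians were below 0, at -0.56 and -0.31, with all genes at 0.22. Of the 2 members measured in these clusters at day 21 and in the control, 1 was 2-fold lower, Wnt2, from 17 and 4 UMIs. The summed level of the 14 hepatocyte markers was 99732, 90832 and 74209 CPM in the control, day 4 and day 21 libraries, and that of the endothelial markers in the same cells 2444, 1884 and 3694 CPM. The zonation values are class sums, in which deep cells weigh most: the deepest control cell held 46204 of the 567901 UMIs. Cells with 10 or more Glul UMIs held 142074 of these, and 44710 of 413951 at day 21, so the mix of cells differed. The mean of the cells' own CPM, which turned the direction of Glul, was not taken for the list genes. The part of these shifts, of the mix of cells and of the lower depth at day 21 in the zonation values was not tested.

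**Figure D5:**
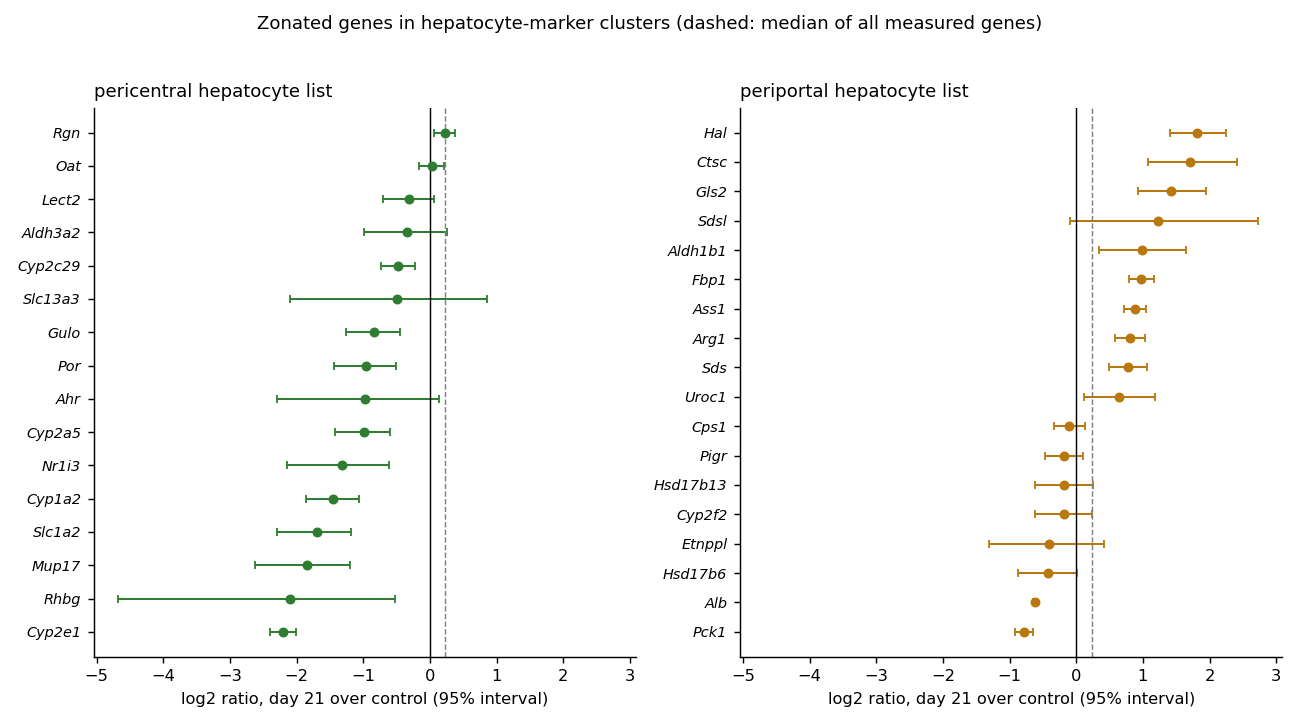
Log2 ratio of day 21 to control in the hepatocyte-marker clusters for each measured gene of the pericentral (left) and periportal (right) hepatocyte lists, with 95% intervals of counting error, a solid line at 0 and a dashed line at the median of all measured genes. Of the pericentral genes Cyp2e1 lies lowest and Oat near 0, and of the periportal genes Hal lies highest.

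Tbx3, a T-box transcription factor, was scarce and was the member with the largest share of its UMIs in the hepatocyte-marker clusters, which held 12 of 21 UMIs among control cells, 24 of 31 at day 4 and 5 of 8 at day 21. Its level there was 21.1, 25.7 and 12.1 CPM, and no other class of 50 or more cells exceeded 2.19 CPM in any library. The 8 UMIs of the whole day 21 library are too few to place it against the control. Axin2, a feedback inhibitor of the pathway, had 3, 1 and 0 UMIs in the hepatocyte-marker clusters. Of its 93, 84 and 57 UMIs in the control, day 4 and day 21 libraries, stellate-like cells held 37, 35 and 5, T-like cells 33, 27 and 26 and endothelial-like cells 11, 8 and 8. At day 21 the unnamed clusters held a further 8. The stellate level was 8.90, 9.72 and 3.36 CPM, a day 21 log2 ratio of -1.29 with a wide interval (-3.11 to -0.05). In T-like cells, where WNT signalling through TCF factors is known from naive and memory cells, Axin2 was at 13.4, 12.9 and 23.9 CPM (day 21 log2 ratio 0.85, 0.04 to 1.63). The median ratio of the hepatocyte targets that reached 20 UMIs was -0.03 at day 4 (Glul and Tbx3) and -0.55 at day 21 (Glul alone) against the control, and -0.61 for day 21 against day 4.

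Lgr5, a receptor for R-spondins, had 11 UMIs among control cells, 13 at day 4 and 58 at day 21. The hepatocyte-marker clusters held 5, 6 and 1 of them, and at day 21 54 of the 58 lay in B-like cells. They lay in cluster 19, which held 0, 1 and 297 cells in the 3 libraries. There 42 of the 297 cells had an Lgr5 UMI, 14.1% (Clopper-Pearson interval 10.4 to 18.6), with at most 5 per cell and a level of 49.5 CPM. The cluster held Vpreb1 and Igll1, the surrogate light chain of precursor B cells, at 815 and 619 CPM, Rag1, the recombinase of antigen receptor genes, at 144 CPM, and Mki67, a proliferation marker, at 701 CPM. Lef1, a partner of beta-catenin, was at 155 CPM. Lgr4, Lgr6 and Rnf43 had 0 UMIs there, Znrf3 had 3 and Axin2 had 1. Cluster 6, the other B-like cluster, had 2, 0 and 0 Lgr5 UMIs in 327, 212 and 427 cells. For the B-like class as a whole the day 21 level was at least 7.45-fold higher than at day 4, taken against a floor of 3 counts, and 14.0-fold higher than in the control, where 2 UMIs were counted (4.56 to 146.5). Lgr5 was 1 of the 2 members measured in B-like cells and the 1 that was at least 2-fold higher at day 21 than in the control, against 24.2% of all measured genes, a class in which cluster 19 was present at day 21 and held 0 control cells.

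Genes whose pattern was most like that of each member were ranked by Pearson's r of log2(CPM + 1) over profiles summed by cluster and library. The ligands were compared over the 6 endothelial-like profiles of 50 or more cells, which come from 3 libraries and 3 clusters, so that many genes reach a high r. Wnt2 was most like Rnf181 (r = 0.99), Gbf1 (0.97) and Nostrin (0.97), Wnt9b most like Gadd45b, Stat5b and Srxn1 (0.99 each), and Rspo3 was close to Diaph2 (0.99) and Emp3 (0.99). The targets were compared over 58 profiles of all clusters. Tbx3 was most like Nags, the synthase of the urea cycle activator N-acetylglutamate (0.94), and Cldn14, a claudin of tight junctions (0.93). Glul was most like Selenop, the selenium carrier of plasma (0.87), and Cttn (0.86). Lgr5 was most like Gfra1, a receptor for GDNF ligands (0.74), and Vpreb2, a surrogate light chain gene (0.72), and Axin2 most like Krba1 (0.78) and Tasp1 (0.74).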

How the data were processed

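Raw UMI counts per gene and cell barcode were deposited as 3 filtered matrices, 1 per library, written by 10x software version 3.1.0 per the file headers, with build mm10 per the submitters' processing notes; the aligner and annotation are not given in the sources used here. Barcodes entered when they had 200 or more genes and no more than 20% mitochondrial UMIs. Doublets marked by Scrublet (40 and 732 in the control and day 21 libraries) were removed; at day 4 the automatic call marked 7 barcodes, and the 252 highest scores, the share foreseen for that number of cells, were removed instead.

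Cells were normalised to 10000 counts, and the 2000 most variable genes without the 7 members, 30 principal components and 15 neighbours gave 32 Leiden clusters (resolution 1; Scanpy 1.11.5, leidenalg 0.10.2, Python 3.11.15), of which 24 were named. A marker was detected in a cluster when 10% of cells held it and its CPM was 2-fold over the other clusters. A name needed 3 detected markers, more than for any other class. It was withheld when another class had more markers, or as many, among the cluster's 10 leading genes by fold. Shallow clusters with no marker of their class among those 10 were also left unnamed. Cluster 1 (816, 668 and 88 cells) and cluster 14 (180, 229 and 131), with endothelial markers, were thus outside the endothelial-like class. Hepatocyte-like cells had been planned for the targets; since the shallow cluster 15 could not be named, hepatocyte-marker clusters 15 and 31 were used.

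Counts were summed per class and library, as cells are not replicates. For log2 ratios, each sum was raised by 0.5 counts; ratios have exact conditional binomial intervals; a gene counted as measured when the pair of libraries together had at least 20 of its UMIs and as called at a 2-fold ratio. With 1 library per group no p-value was computed. Scripts were tested on simulated data. Alternatives were the mitochondrial limit, doublets, clustering settings, class rule, thinning and scaling. The members and gene lists were chosen with earlier results of these data known. Named genes are the members, up to 4 genes per pathway list by size of log2 ratio, and genes among the 5 most alike per member, of which 1 is not reported here; further list genes named with values were chosen after their values were seen. Positions are from GENCODE M21 on GRCm38.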

Additional observations from a re-analysis of the deposited data

Results flagged for a closer look

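Class sums of several members lay on opposite sides of a reference library in different cell classes, in part with classes made up of different clusters in each library. These differences between classes were not tested, and each rests on 1 library per group. For day 21 against the control, the log2 ratio of Rspo3 was 0.71 in endothelial-like and -0.57 in stellate-like cells, and that of Axin2 was 0.85 in T-like and -1.29 in stellate-like cells. Glul was at 0.67 in B-like cells and at -0.23, -0.55 and -0.27 in endothelial-like cells, hepatocyte-marker clusters and stellate-like cells. The B-like class gained cluster 19, with 0 control and 297 day 21 cells, and in cluster 6, which both libraries held, Glul was at 0.27 (-0.34 to 0.87). The hepatocyte value is no set direction, since averaging cells gave 0.25 and a limit of 50% mitochondrial UMIs 0.19, and the stellate-like value was 0.28 with cells thinned to 1000 UMIs. In endothelial-like cluster 21 Glul was at 0.53. For day 21 against day 4, Rspo3 was at 0.73 in endothelial-like and -0.68 in stellate-like cells and Axin2 at 0.90 in T-like and -1.42 in stellate-like cells. In that comparison Glul was at 0.80 in B-like, 0.44 in Kupffer-like, 0.40 in endothelial-like and 0.60 in stellate-like cells, and at -0.24 in the hepatocyte-marker clusters, where the 50% limit gave 0.057. In cluster 6 alone it was at 0.39 (-0.29 to 1.095), and in Kupffer-like cluster 4 at 0.62.

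For day 4 against the control, Wnt2 was at -2.002 in Kupffer-like and -0.35 in stellate-like cells and at 0.13 in endothelial-like cells, and Rspo3 was at -1.71 in Kupffer-like and 0.11 in stellate-like cells. The Kupffer-like values rest on 33 and 15 UMIs of Wnt2 and 18 and 10 of Rspo3, in 472 and 899 cells. Within the endothelial-like class, Wnt2 for day 21 against the control was at 1.70 in cluster 21 and -0.82 in clusters 0 and 5.

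Barcodes that the filters removed enter no comparison under the main settings. They held Rspo3 at 72.7 CPM at day 4 against 50.2 CPM in the control, and Lgr5 at 2.55 CPM at day 21 (16 UMIs) against 0 UMIs in the control.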

How the results depend on the processing

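Of 142 values of the medians and cell shares under other processing settings, 110 moved by less than their counting interval, 31 moved further and 1 reversed. Thinning to 1000 UMIs gave ligand medians of 0.36 (day 21 against control) and 0.27 (day 21 against day 4), a target median of -0.87 at day 21, and shares of 23.5%, 23.6% and 16.3% for Wnt2, 0.516%, 0.956% and 1.88% for Wnt9b and 4.43%, 4.03% and 5.82% for Rspo3 in the control, day 4 and day 21 libraries. It turned the day 4 ratio of Wnt2 (0.073) and Rspo3 (-0.012) in stellate-like cells and of Glul in hepatocyte-marker clusters (0.20), and the day 21 ratio of Glul in stellate-like cells (0.28). At most 10% mitochondrial UMIs gave shares of 64.3% (day 4) and 36.5% (day 21) for Wnt2, 6.12% (day 21) for Wnt9b and 9.87% (day 4) and 13% (day 21) for Rspo3, and turned stellate Rspo3 at day 4 (-0.020). At most 50% gave a target median of -0.26 at day 21, stellate Rspo3 -0.056 at day 4 and hepatocyte Glul 0.13 (day 4), 0.19 (day 21) and 0.057 (day 21 against day 4). Averaging cells' CPM gave a target median of 0.25 at day 21 and a ligand median of 0.53 for day 21 against day 4, hepatocyte Glul 0.58 and 0.25, and stellate Glul 0.013 at day 21. Resolution 0.5 gave a ligand median of 1.31 at day 21 and Rspo3 shares of 14.4%, 11.0% and 22.8%. Classes from each cell's own markers gave a target median of -0.21 at day 21 and shares of 50.3% and 54.1% for Wnt2 (control, day 4) and 2.35% for Wnt9b (control). Adding unnamed endothelial-marker clusters gave 45.7% and 51.0% for Wnt2 and 1.99% and 2.83% for Wnt9b (control, day 4). Of alternatives chosen after seeing the data, cluster 21 alone gave Wnt2 1.70 and Glul 0.53 (day 21 against control) and Wnt2 0.20 (against day 4), the pericentral cells gave Wnt2 -0.037 at day 4, and stellate-like cells with few endothelial markers gave Rspo3 -0.25 at day 4. The cause of these shifts was not tested. The lower Wnt2 at day 21 in endothelial-like cells kept its sign under 11 settings (-1.001 to -0.55), and so did the higher Rspo3 (0.36 to 1.31) and the lower stellate Rspo3 (9 settings, -0.76 to -0.57). Depth limits Wnt9b, Axin2, Lgr5 and Tbx3, whose counts are small. No paired analysis was possible because each group holds 1 library.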
